A study of Mus musculus with 11 samples.

Results

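A set of 44 genes of the cell cycle and of DNA replication was followed by RNA sequencing in cultured adult mouse microglia given the Toll-like receptor 2 (TLR2) agonist Pam3CSK4, interferon-gamma (IFN-gamma), both, or neither. The 44 genes were named one by one and matched by symbol in a table of 34745 genes. They comprise 27 genes of the G1/S transition and of replication, 13 mitotic genes and 4 inhibitors of cyclin-dependent kinases. Genes with at least 1 FPKM (fragments per kilobase, a level corrected for transcript length and library size) in at least 2 of the 11 libraries were tested, 10938 in all. Of the 44 genes, 43 passed this filter: 26 of 27 G1/S genes, 13 of 13 mitotic genes and 4 of 4 inhibitors. Cdc6, which loads the replicative helicase, did not pass. It had 0.0985 to 0.644 FPKM in Control, 0.875 and 1.01 in Pam3CSK4, and 0.266 to 0.689 in the other 2 groups.

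Microglia from the cerebrum of C57BL/6 mice (6 to 8 weeks old) were kept for 10 to 14 days in medium that held 5 ng/ml TGF-beta1 and 10 ng/ml M-CSF, a growth factor for microglia, in all groups. The groups were Control (n = 3), Pam3CSK4 at 100 ng/ml for 24 h (n = 2), IFN-gamma at 20 ng/ml for 24 h (n = 3), and Pam3CSK4 for 24 h followed by IFN-gamma for 24 h (n = 3), called the combined group below. In 1 label field the last digit of the agonist's name differs in replicates 2 and 3 of the combined group, and these were taken as the same treatment. The labels do not say whether replicates came from separate mice or cultures, so p-values measure only the spread between these libraries, which may be technical. Nor do they give the harvest time of the Control and Pam3CSK4 cells against that of the cells given IFN-gamma.

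A cell enters S phase when cyclin D and cyclin E kinases release E2F transcription factors from the retinoblastoma family. E2F then drives the genes that load the MCM helicase at replication origins, supply nucleotides and build the replication fork. Genes of mitosis are transcribed later in the cycle, through B-MYB and FOXM1, and the DREAM complex represses these genes in resting cells. Their promoters often hold cell cycle homology region (CHR) and CCAAT elements. Microglia depend on signalling through the M-CSF receptor and can divide in culture when M-CSF is supplied. Inhibitors of the CIP/KIP family bind cyclin kinase complexes, and those of the INK4 family bind the kinases of cyclin D.

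The promoter sequences below show the elements through which the G1/S and mitotic genes are thought to be read together. Each is the 150 bases before the RefSeq transcription start (GRCm38.p6), 5′ to 3′ on the gene's strand. In the G1/S genes Mcm6 (chr1:128359706-128359855, minus strand) and Mcm5 (chr8:75109359-75109508, plus strand), capitals mark E2F motifs, searched as TTTCCCGC, TTTCGCGC, TTTGCCGC and TTTGGCGC on both strands. In the mitotic genes Mki67 (chr7:135716380-135716529, minus strand) and Top2a (chr11:99024190-99024339, minus strand), capitals mark CHR motifs, searched as TTTGAA and TTCGAA, and CCAAT boxes, searched as CCAAT, on both strands.
Mcm6: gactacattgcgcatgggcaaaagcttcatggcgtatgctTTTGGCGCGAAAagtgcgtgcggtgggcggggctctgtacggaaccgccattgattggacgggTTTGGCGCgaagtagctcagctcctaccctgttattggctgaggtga
Mcm5: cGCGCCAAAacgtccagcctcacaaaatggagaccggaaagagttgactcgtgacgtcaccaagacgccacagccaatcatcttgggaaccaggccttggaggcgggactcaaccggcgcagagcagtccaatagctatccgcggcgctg
Mki67: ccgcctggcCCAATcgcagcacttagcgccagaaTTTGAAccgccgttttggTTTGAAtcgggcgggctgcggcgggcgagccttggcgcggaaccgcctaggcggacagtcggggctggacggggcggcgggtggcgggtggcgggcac
Top2a: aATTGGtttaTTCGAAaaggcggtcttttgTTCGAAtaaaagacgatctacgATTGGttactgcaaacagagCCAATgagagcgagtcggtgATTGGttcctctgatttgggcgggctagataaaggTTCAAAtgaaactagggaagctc
The Mcm6 window held 3 E2F matches, of which the first pair overlap, starting 110, 106 and 47 bases before the start. The Mcm5 window held 1, at 149 bases before the start. Both windows also held 2 CCAAT boxes each, left in lower case. Top2a had 3 CHR matches and 4 CCAAT boxes, and Mki67 had 2 CHR matches and 1 CCAAT box.

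Promoters of 35 of the 43 genes were found in RefSeq. In a window of 300 bases (250 before the start and 50 after it), 7 of 20 G1/S promoters held an E2F motif, against 4.77% of the promoters of all genes tested. A CHR motif lay in 9 of 11 mitotic promoters, against 16.2% of all tested, and a CCAAT box in 10 of 11, against 42.7%. The CCAAT box was not particular to the mitotic set, as 13 of 20 G1/S promoters and 3 of 4 inhibitor promoters held it too. In the 150 bases before the start alone, the E2F motif was in 3 of 20 G1/S promoters (Mcm5, Mcm6 and Cdk2) and in 2.68% of all tested. The CHR motif there was in 4 of 11 mitotic promoters, against 7.32%. The RefSeq starts of these 3 G1/S genes and of Mki67 differ from those in GENCODE M21: the nearest GENCODE transcript start of the gene lay 60 bases downstream in Mcm5, 41 in Mcm6, 20 in Cdk2 and 18 in Mki67. That of Top2a coincided. No promoter of the 4 inhibitors held an E2F or CHR motif in either window. These matches describe letters only.

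Libraries held 15033702 to 20321017 counts, and 15730 to 18185 genes had a count in each. All 9 microglial markers were present in every library. Their summed level was 5990 to 8870 FPKM in Control and 8085 to 8805 in IFN-gamma, and lower in the libraries given Pam3CSK4, at 5053 to 5331 without and 4708 to 4991 with IFN-gamma. Of the 9 markers, 5 fell and 2 rose with Pam3CSK4. The part of this in the results with Pam3CSK4 was not tested. There were 3 libraries that stood apart. IFN-gamma replicate 1, combined replicate 3 and Control replicate 3 had 44.1, 10.5 and 865 FPKM of Acta2, the smooth muscle actin of mural cells and myofibroblasts, and no other library had more than 1.41. The summed level of the mural and fibroblast markers ran from 31.7 to 2270 FPKM in Control, 54.1 to 63.5 in Pam3CSK4, 17.4 to 130 in IFN-gamma and 18.2 to 69.7 in the combined group. In the other 8 libraries only 1 or 2 of these 12 markers reached 1 FPKM. Among those 8 libraries, 2 of 8 tested mural and fibroblast markers rose with Pam3CSK4, namely Cspg4 and Pdgfrb (log2 changes of 0.54 and 1.82). Pdgfrb stayed under 1 FPKM in both Pam3CSK4 libraries. Cspg4 was lower than in Control with IFN-gamma (-1.12) and in the combined group (-0.95), so these sums also move with treatment. Neither Pam3CSK4 library reached 5 FPKM of Acta2. Of 4 neuron markers, Tubb3, a tubulin, was also higher in these 3, at 10.7, 3.48 and 6.88 FPKM in the order just given, against at most 0.398 elsewhere. The other 3, Rbfox3, Snap25 and Syt1, were at no more than 0.0436 FPKM in any library. In bulk RNA, fewer cells of a type and less RNA per cell cannot be told apart.

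The cell cycle genes were high in those 3 libraries. Control replicate 3 had the highest level of its group in 38 of 43 genes, against 50.3% of all genes tested. IFN-gamma replicate 1 was highest in 37 of 43 (41.3% of all tested), and combined replicate 3 in 37 of 43 (40.7%). Mitotic genes stood furthest from the group's other libraries, with median ratios of 2.82, 2.08 and 1.51 in the same order of libraries. The G1/S medians were 2.06, 1.34 and 1.34, and those of the inhibitors 1.19, 0.96 and 1.00. The widest ratio was that of Ccnd2 in Control replicate 3, at 44.9. Because these libraries are unevenly spread over the groups, counts are given with all 11 libraries and without the 3. The value of a single gene is from all 11 unless the text says otherwise. The part of stromal cells in the results from all 11 libraries was not tested.

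**Figure D1:**
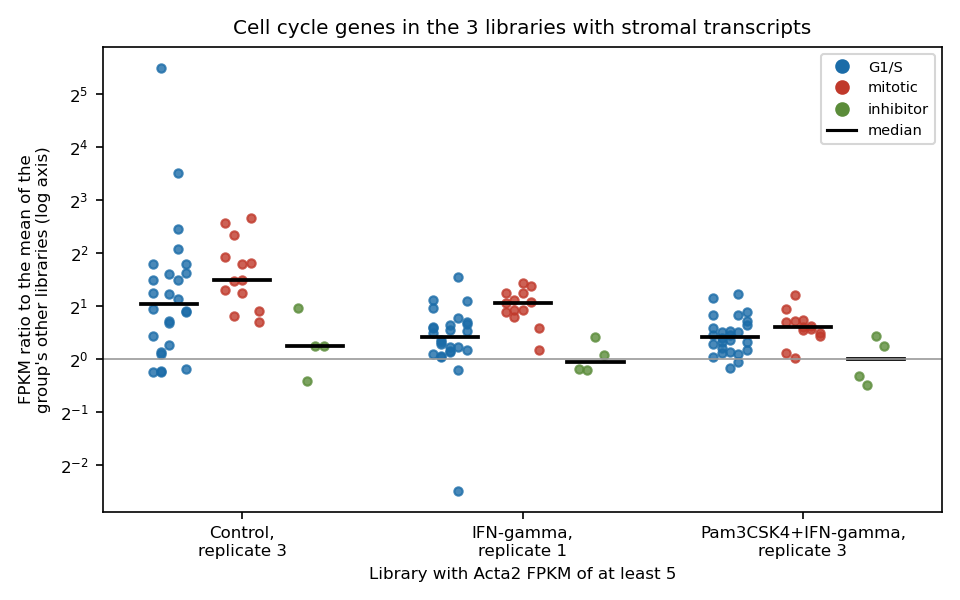
Ratio of each gene's FPKM in 1 of the 3 libraries with Acta2 of at least 5 FPKM to the mean of that group's other libraries (vertical axis, log scale), by library and gene set. Points are genes and black lines medians. The mitotic medians lie at 2.82, 2.08 and 1.51, above the inhibitor medians of 1.19, 0.96 and 1.00.

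**Figure D2:**
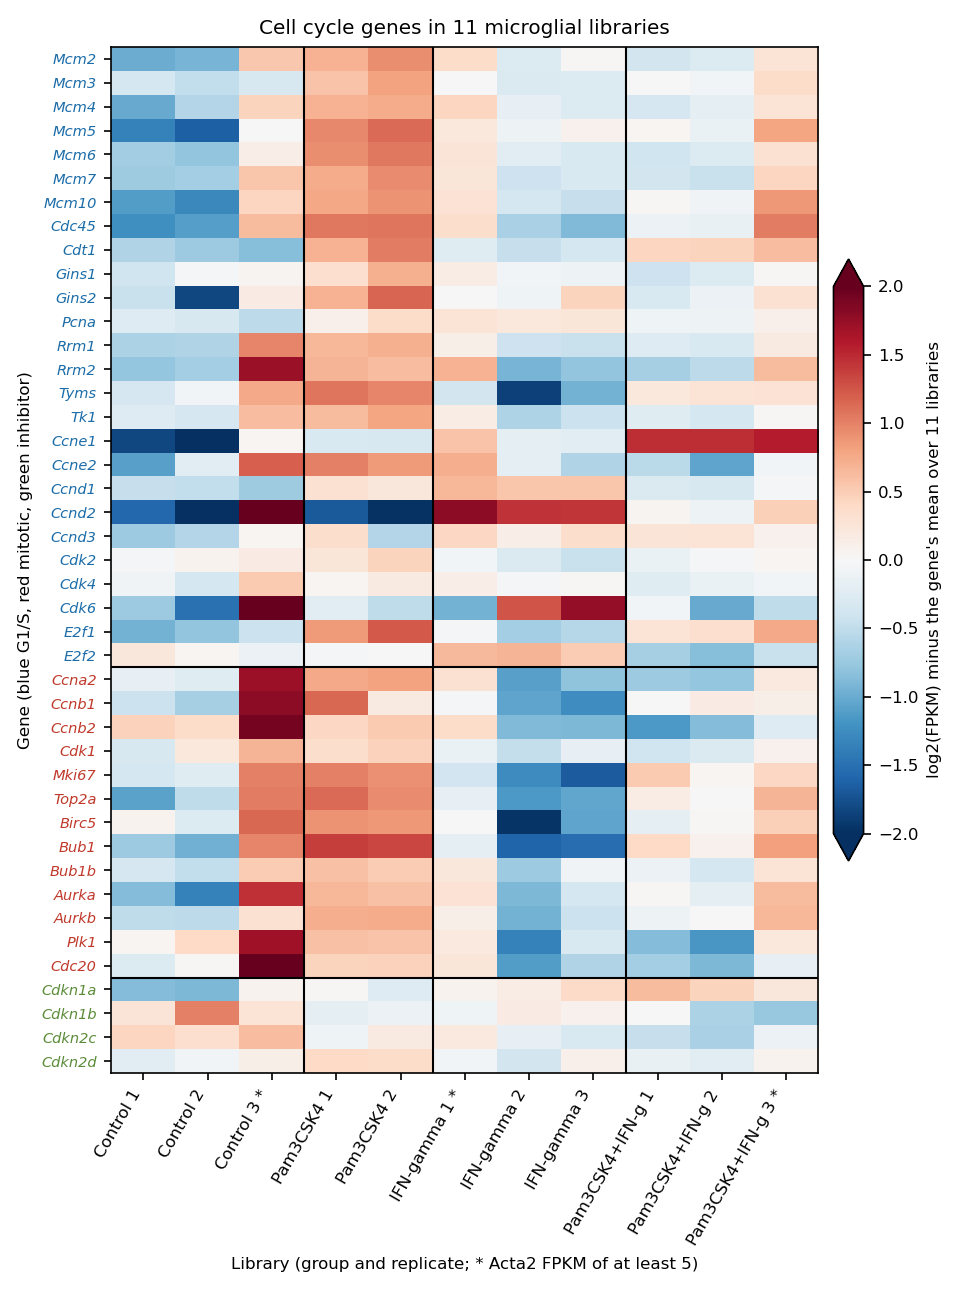
Level of the 43 genes (rows) in the 11 libraries (columns), as log2(FPKM) minus the gene's mean over the libraries, with colours ending at 2 in either direction; asterisks mark the 3 libraries with Acta2 of at least 5 FPKM. Most G1/S rows are high in the Pam3CSK4 columns, and most mitotic rows are low in IFN-gamma replicates 2 and 3.

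With Pam3CSK4 alone, 12 of the 26 tested G1/S genes were higher than in Control. Of the 43 genes, 13 rose and 0 fell in edgeR's quasi-likelihood test at an adjusted p under 0.05, while 20.0% of all genes tested rose and 21.4% fell. At an unadjusted p under 0.05, 20 were higher and 3 lower, and DESeq2 called 17 higher and 1 lower. The remaining gene of the 13 was the mitotic kinase Aurkb. The median log2 change was 0.75 over the G1/S genes, 0.38 over the mitotic genes and -0.02 over the inhibitors, beside -0.04 over all genes tested. When the 3 were left out, 30 rose (26.3% of all tested) and 2 fell (27.4%): 20 G1/S genes, 9 mitotic genes and 1 inhibitor rose, and 2 inhibitors fell. All 13 of the first calls were among them. Leaving out Control replicate 3 alone gave 27 higher, whereas leaving out Control replicate 1, Pam3CSK4 replicate 2 or combined replicate 2 gave 8, 7 and 8.

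With IFN-gamma alone, the G1/S and mitotic medians had opposite signs. In edgeR 7 genes rose, against 20.0% of all tested, and 4 fell, against 21.6%: among G1/S genes 6 rose and 1 fell, 2 mitotic genes fell, and among inhibitors 1 rose and 1 fell. The median log2 change was 0.35 over G1/S genes and -0.99 over mitotic genes, beside -0.07 over all genes tested. In the other 8 libraries 17 rose (22.9% of all tested) and 9 fell (24.3%), with 16 G1/S genes higher and 2 lower, and 6 mitotic genes lower. The G1/S median was then 0.50 and the mitotic median -0.66. In edgeR 0 mitotic genes were higher in either fit, also at an unadjusted p under 0.05, and the count was 0 in DESeq2 with all libraries. The count of higher genes was 16 without Control replicate 3 and 4 without IFN-gamma replicate 3. The count of lower genes was 0 without Control replicate 3, IFN-gamma replicate 2 or IFN-gamma replicate 3, 1 without either Pam3CSK4 replicate or combined replicate 1, and 2 without combined replicate 2 or 3.

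In the combined group 9 genes rose against Control in edgeR (23.4% of all tested) and 4 fell (24.2%). Of the 9, 8 were G1/S genes and 1 was Cdkn1a; the 4 lower genes were E2f2, Ccnb2, Cdkn1b and Cdkn2c. With the 8 remaining libraries, 21 rose (27.0%) and 6 fell (26.3%), with the mitotic genes split into 5 higher and 3 lower. Leaving out Control replicate 3 alone gave 20 higher. The count of lower genes was 7 without Control replicate 1 and 2 without combined replicate 2. The comparisons of Pam3CSK4, IFN-gamma and the combined group with Control share the same Control libraries.

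Against IFN-gamma alone, the combined group had 5 genes higher (17.0% of all tested) and 2 lower (17.2%). Cdt1, Tyms, Ccne1, E2f1 and Mki67 rose, and Ccnd1 and E2f2 fell. With those 3 left out, 11 rose (20.6%) and 5 fell (19.6%). Of these 11, 6 were mitotic. The mitotic median was 0.43 with all libraries and 0.51 without the 3, while the G1/S median was 0.01 and -0.06. The count of higher genes was 3 without IFN-gamma replicate 2 or combined replicate 2, and 2 without IFN-gamma replicate 3 or combined replicate 1 or 3. The count of lower genes was 4 without Control replicate 3.

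Against Pam3CSK4 alone, edgeR called 0 of the 43 genes higher (6.06% of all tested) and 0 lower (3.04%) with all 11 libraries. At an unadjusted p under 0.05, 2 were higher and 9 lower, and DESeq2 called 1 higher and 4 lower. The levels nevertheless lay apart: in 33 of 43 genes every combined library was below both Pam3CSK4 libraries, as was the case in 39.2% of all genes tested. When the 3 were left out, 27 genes were lower (8.43% of all tested) and 3 higher (11.0%), the latter being Ccne1, Ccnd2 and Cdkn1a. Leaving out Control replicate 3 alone gave 7 lower and 3 higher, leaving out combined replicate 3 gave 2 lower, and leaving out Control replicate 2 gave 1 higher.

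The change with Pam3CSK4 in IFN-gamma-treated cells minus that in untreated cells, tested as an interaction, was lower than 0 in 6 genes (8.01% of all tested): Mcm3, Mcm6, Cdt1, Pcna, Ccnd1 and E2f2, all of the G1/S set. It was higher than 0 in 0 genes (8.01%), also at an unadjusted p under 0.05 and in DESeq2. The median over G1/S genes was -0.80, and over mitotic genes 0.06. In the other 8 libraries 22 genes were lower (13.7% of all tested), 20 of them G1/S genes and 2 mitotic. The medians were then -1.14 and -0.46. Leaving out Control replicate 3 alone gave 18 lower genes. Leaving out Control replicate 2, combined replicate 1 or combined replicate 2 gave 3, and leaving out Pam3CSK4 replicate 2 gave 2.

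**Figure D3:**
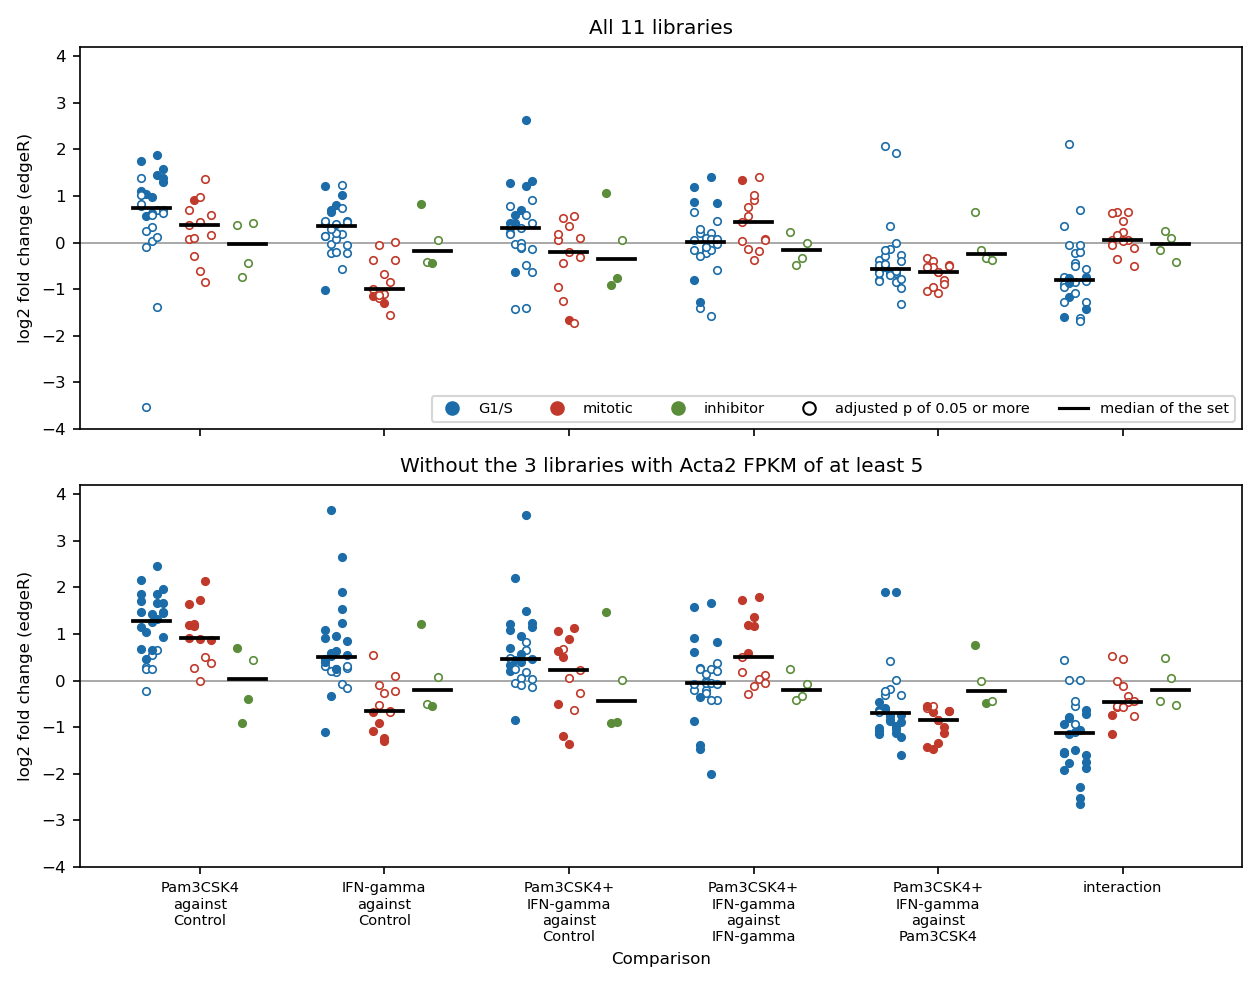
Log2 fold changes (vertical axis, edgeR) of the 43 genes in the 6 comparisons, with all 11 libraries above and without the 3 libraries with Acta2 of at least 5 FPKM below. Filled points have an adjusted p under 0.05, and black lines are set medians. With IFN-gamma against Control the G1/S medians, 0.35 and 0.50, lie above 0 and the mitotic medians, -0.99 and -0.66, below it.

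In the values that follow, libraries are in the order of their replicate numbers. Among the genes that load and run the MCM helicase, counted together with the clamp gene Pcna, 10 of 12 rose with Pam3CSK4 (20.0% of all tested). Without the 3 libraries 12 of 12 rose (26.3%). Mcm5, a subunit of the MCM2-7 helicase, had 3.58, 2.96 and 9.17 FPKM in Control and 17.9 and 20.0 in Pam3CSK4. It had 10.6, 8.55 and 9.66 in IFN-gamma and 9.40, 8.31 and 15.8 in the combined group. Both Pam3CSK4 libraries were above all others, and only Control replicate 3 reached the IFN-gamma range. The log2 change with Pam3CSK4 was 1.88 ± 0.40 (SE; adjusted p = 0.00449 in edgeR), and 2.47 ± 0.13 without the 3 libraries. With IFN-gamma it was 1.02 ± 0.36 (adjusted p = 0.0482 in edgeR) and lost the call in 9 of the 11 leave-outs of 1 library, among them Control replicates 1 and 2 at adjusted p = 0.134 and 0.131. With the 8 remaining libraries, that change was 1.54 ± 0.13. Mcm5 also rose in the combined group, by 1.22 ± 0.36, a call lost without Control replicate 1 or 2 or combined replicate 3 (adjusted p = 0.0679, 0.0597 and 0.0847 in edgeR).

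Mcm6, the subunit whose promoter is shown above, had 6.00, 5.65 and 10.8 FPKM in Control, 18.7 and 20.3 in Pam3CSK4, 11.7, 8.32 and 7.94 in IFN-gamma, and 7.42, 8.10 and 12.1 in the combined group. Pam3CSK4 libraries again stood above all others. Mcm6 rose with Pam3CSK4 by a log2 of 1.39 ± 0.27 (adjusted p = 0.00271 in edgeR), and the interaction was -1.42 ± 0.36 (adjusted p = 0.0285). That interaction lost its call in 7 of the 11 leave-outs, with adjusted p up to 0.108 without Pam3CSK4 replicate 2, and was -1.76 ± 0.13 without the 3 libraries.

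Mcm3, another subunit, differed little in Control replicate 3, at 7.40, 6.72 and 7.56 FPKM in Control. It had 13.9 and 16.4 in Pam3CSK4, 9.47, 7.67 and 7.82 in IFN-gamma, and 9.48, 9.09 and 12.2 in the combined group. The Control and Pam3CSK4 ranges were well apart, and the rise was 1.05 ± 0.14 (adjusted p = 0.000309 in edgeR) and 1.04 ± 0.10 without the 3 libraries. Mcm3 also rose in the combined group, by 0.59 ± 0.13. Its interaction of -0.76 ± 0.19 lost the call without Control replicate 2, Pam3CSK4 replicate 2 and combined replicates 1 and 2 (adjusted p = 0.0518, 0.122, 0.0672 and 0.0627 in edgeR).

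Cdt1 brings the helicase to the origin and is the licensing factor that geminin holds back. It had 13.2, 12.2 and 11.2 FPKM in Control, 32.7 and 41.1 in Pam3CSK4, 17.1, 14.6 and 15.7 in IFN-gamma, and 27.3, 27.6 and 30.9 in the combined group. The 4 groups did not overlap, in the order Control, IFN-gamma, combined, Pam3CSK4. Cdt1 rose with Pam3CSK4 by a log2 of 1.58 ± 0.14 (adjusted p = 3.47e-05 in edgeR) and in the combined group by 1.32 ± 0.13. It rose by 0.85 ± 0.13 in the combined group against IFN-gamma. Its change with IFN-gamma, 0.47 ± 0.13, was 0.32 ± 0.13 without the 3 libraries and no longer called (adjusted p = 0.0714), nor without IFN-gamma replicate 1 (adjusted p = 0.0521). The interaction of -0.73 ± 0.19 was not called in 6 of the 11 leave-outs (adjusted p up to 0.153, without Pam3CSK4 replicate 2).

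Mcm2, Mcm4 and Mcm10 rose with Pam3CSK4 by 1.12 ± 0.38, 0.98 ± 0.34 and 1.31 ± 0.46. Mcm2 and Mcm4 are further helicase subunits, and Mcm10 helps to start the fork. These 3 calls were lost in 8, 9 and 8 of the 11 leave-outs, with adjusted p up to 0.182, 0.152 and 0.164 in edgeR without Pam3CSK4 replicate 2. Mcm2 shows the pattern: it had 1.29, 1.36 and 3.74 FPKM in Control and 4.17 and 4.93 in Pam3CSK4. With those 3 left out, the changes were 1.71 ± 0.15, 1.43 ± 0.15 and 1.98 ± 0.16, all called. Mcm7 and Cdc45, which missed the threshold with all libraries (1.01 ± 0.37 and 1.39 ± 0.56), changed by 1.47 ± 0.11 and 2.15 ± 0.16 without the 3.

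Gins1 and Gins2, of the complex that activates the helicase, rose with Pam3CSK4 by 0.63 ± 0.21 and 1.44 ± 0.42, and by 0.67 ± 0.21 and 1.85 ± 0.39 without the 3 libraries. Gins1 lost its call without Control replicate 1, Pam3CSK4 replicate 2 or combined replicate 2 (adjusted p = 0.0884, 0.252 and 0.052 in edgeR), and Gins2 without Pam3CSK4 replicate 2 (adjusted p = 0.137). Exons of Gse1 on the opposite strand cover 67.3% of the exonic bases of Gins2, so its value is uncertain. Pcna, the sliding clamp of the replication fork, was the most abundant replication gene, at 48.8, 46.6 and 40.8 FPKM in Control and 62.4 and 75.0 in Pam3CSK4. It had 70.9, 67.8 and 69.3 in IFN-gamma and 54.9, 54.3 and 62.7 in the combined group. All treated libraries were above all Control libraries.

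Pcna rose by 0.57 ± 0.14 with Pam3CSK4, 0.70 ± 0.13 with IFN-gamma (adjusted p = 0.00207 in edgeR) and 0.42 ± 0.13 in the combined group. The last call was lost without the 3 libraries, at 0.24 ± 0.10 (adjusted p = 0.0825), and without combined replicate 3 (adjusted p = 0.0707). The first and the interaction, -0.86 ± 0.19, were lost without Pam3CSK4 replicate 2 (adjusted p = 0.103 and 0.0906). Pcna-ps2, a processed copy of Pcna, was listed at 33.8 to 39.8 FPKM in Control and 58.1 to 60.5 in Pam3CSK4. It was at 54.9 to 65.5 in IFN-gamma and 48.2 to 56.3 in the combined group. How reads shared by Pcna and this copy were counted is not given, and both values are uncertain.

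Of the 4 enzymes that supply nucleotides, 0 were called with Pam3CSK4 by edgeR or DESeq2 with all libraries, 2 were higher in edgeR at an unadjusted p under 0.05, and 4 of 4 rose without the 3. Rrm2, the regulated subunit of ribonucleotide reductase, shows how far the libraries with Acta2 could stand out. It had 2.56, 2.74 and 14.5 FPKM in Control, 7.05 and 6.73 in Pam3CSK4, 7.13, 2.30 and 2.55 in IFN-gamma, and 2.76, 3.06 and 6.80 in the combined group. In Control, IFN-gamma and the combined group, the highest library was the one with Acta2 of at least 5 FPKM. The log2 change with Pam3CSK4 was 0.12 ± 0.75 with all libraries and 1.31 ± 0.13 (adjusted p = 8.31e-05 in edgeR) without the 3. Rrm1, the other subunit, had 9.04, 9.24 and 27.6 FPKM in Control and 22.4 and 23.1 in Pam3CSK4. Its log2 change was 0.60 ± 0.39 and not called with all libraries, and 1.25 ± 0.08 and called without the 3.

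Tyms, thymidylate synthase, was the 1 nucleotide gene called with all libraries in any comparison. It had 0.759, 0.915 and 1.61 FPKM in Control, 2.00 and 1.89 in Pam3CSK4, 0.739, 0.262 and 0.495 in IFN-gamma, and 1.10, 1.16 and 1.17 in the combined group. IFN-gamma libraries were below all others. Tyms fell with IFN-gamma by 1.01 on the log2 scale (SE 0.34; adjusted p = 0.0364 in edgeR) and was 1.20 ± 0.34 higher in the combined group than in IFN-gamma. The first call was lost in 9 of the 11 leave-outs, with adjusted p up to 0.101 without Control replicate 3, and the second in 4. When the 3 were left out, both held, at -1.10 ± 0.27 and 1.58 ± 0.27. Tk1, the salvage thymidine kinase, was called in no comparison with all libraries and rose by 0.94 ± 0.13 with Pam3CSK4 without the 3.

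The D-type cyclins, which carry mitogen signals to CDK4 and CDK6, had different orders of the groups. Ccnd1 was abundant, at 48.0, 47.1 and 40.3 FPKM in Control, 81.9 and 77.4 in Pam3CSK4, 104, 96.5 and 97.0 in IFN-gamma, and 53.8, 52.8 and 64.8 in the combined group. The groups did not overlap, in the order Control, combined, Pam3CSK4, IFN-gamma. Ccnd1 rose by 0.79 ± 0.14 with Pam3CSK4 and by 1.23 ± 0.13 with IFN-gamma (adjusted p = 7.71e-05 in edgeR), but by 0.42 ± 0.13 in the combined group. Against IFN-gamma alone it fell by 0.80 in the combined group (SE 0.13; adjusted p = 0.00109 in edgeR). The interaction was -1.60 ± 0.19 (adjusted p = 0.00105) and -1.55 ± 0.10 without the 3 libraries, and kept its call in all 11 leave-outs. The call against Control in the combined group was lost without combined replicate 3 (adjusted p = 0.0679). Exons of LTO1 on the opposite strand cover 23.4% of the exonic bases of Ccnd1. Such overlaps also cover 19.7% of Cdk4 (Tspan31), 17.4% of Ccne2 (Ints8) and 12.5% of Ccna2 (Exosc9), and lower shares of further members.

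Ccnd2 had 0.528, 0.174 and 15.7 FPKM in Control, 0.491 and 0.401 in Pam3CSK4, 5.46, 4.27 and 4.23 in IFN-gamma, and 1.63, 1.47 and 2.19 in the combined group. Control replicate 3 was above every other library, and the IFN-gamma libraries came next. With all libraries no comparison was called, and the change with IFN-gamma was -0.03 ± 1.13. In the other 8 libraries Ccnd2 rose with IFN-gamma by 3.67 ± 0.36 (adjusted p = 0.000103 in edgeR) and in the combined group by 2.20 ± 0.36, and was 1.48 lower in the combined group than in IFN-gamma (-1.48 ± 0.31). With Pam3CSK4 it was 0.29 ± 0.39 and not called. Ccnd3, at 2.27, 2.51 and 3.83 FPKM in Control and 4.97, 4.11 and 4.78 in IFN-gamma, rose by 0.80 ± 0.23 with IFN-gamma and 0.70 ± 0.22 in the combined group. The Ccnd3 call with IFN-gamma was lost without Control replicate 1 or 2 or IFN-gamma replicate 3 (adjusted p = 0.0598, 0.0557 and 0.0596), and that in the combined group without Control replicate 1 or 2 or combined replicate 1 or 2 (adjusted p = 0.0687 to 0.0898).

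Among the kinases, Cdk4 and Cdk2 were called in no comparison with all libraries. Cdk2 averaged 14.0 FPKM in Control replicates 1 and 2 and 10.7 in IFN-gamma replicates 2 and 3. Without the 3 libraries it was called lower with IFN-gamma. Control replicate 3 had 15.4 FPKM of Cdk2 and IFN-gamma replicate 1 had 13.3. Cdk4 had 10.3 to 18.7 FPKM in Control, 13.4 and 14.8 in Pam3CSK4, 12.7 to 14.3 in IFN-gamma and 11.1 to 12.6 in the combined group. Cdk6, at 0.214, 0.126 and 1.94 FPKM in Control and 0.183, 0.850 and 1.19 in IFN-gamma, went opposite ways in the libraries with Acta2. It was 11.4 times the other Control libraries in Control replicate 3, and 0.179 times the other IFN-gamma libraries in IFN-gamma replicate 1. With the 8 remaining libraries, Cdk6 rose with IFN-gamma by 2.66 ± 0.36 (adjusted p = 0.000625 in edgeR), and with all 11 the change was 0.17 ± 0.92. Of the Control and IFN-gamma libraries, only Control replicate 3, left out of the former fit, and IFN-gamma replicate 3 reached the filter's 1 FPKM. That rise thus rests on levels near or below this floor.

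Ccne1, the cyclin that drives CDK2 into S phase, had the largest rise of the 43 genes in the combined group. It had 0.938, 0.673 and 3.40 FPKM in Control, 2.68 and 2.66 in Pam3CSK4, 4.92, 2.91 and 2.82 in IFN-gamma, and 9.23, 9.17 and 9.79 in the combined group. All combined libraries were above all others. The rise against Control was 2.63 ± 0.48 (adjusted p = 0.00168 in edgeR) and 3.56 ± 0.16 without the 3 libraries. Against IFN-gamma it was 1.40 ± 0.46 (adjusted p = 0.0415), a call lost in 7 of the 11 leave-outs, with adjusted p up to 0.128 without IFN-gamma replicate 3. Against Pam3CSK4 it was 1.92 ± 0.55 and not called (adjusted p = 0.0599), and 1.90 ± 0.14 and called without the 3. The interaction was 0.70 ± 0.69 and 0.01 ± 0.30, not called in either fit. Ccne2, its relative, was called in no comparison with all libraries; without the 3 it rose with Pam3CSK4 by 1.45 ± 0.29 and was lower in the combined group than in Pam3CSK4 (-1.60 ± 0.29).

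E2f1, an activating E2F factor, had 3.04, 3.40 and 4.37 FPKM in Control, 10.6 and 13.8 in Pam3CSK4, 5.74, 3.66 and 3.97 in IFN-gamma, and 7.09, 7.44 and 9.96 in the combined group. Libraries given Pam3CSK4, with or without IFN-gamma, were above all libraries not given it. E2f1 rose by 1.75 ± 0.21 with Pam3CSK4 (adjusted p = 0.0002 in edgeR), 1.28 ± 0.20 in the combined group, and 0.87 ± 0.19 in the combined group against IFN-gamma. Without the 3 libraries these rises were 1.85 ± 0.15, 1.22 ± 0.15 and 0.91 ± 0.15. Its change with IFN-gamma was 0.41 ± 0.20 and not called.

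E2f2, another activating member, had its own order of groups. It had 4.65, 4.06 and 3.67 FPKM in Control, 3.84 and 3.99 in Pam3CSK4, 6.18, 6.36 and 5.65 in IFN-gamma, and 2.49, 2.18 and 2.92 in the combined group. IFN-gamma libraries were above, and combined libraries below, all others. E2f2 rose with IFN-gamma by 0.65 ± 0.14 (adjusted p = 0.0053 in edgeR) and was lower in the combined group than in Control (-0.62 ± 0.14) and than in IFN-gamma (-1.27 ± 0.14; adjusted p = 0.000153). With Pam3CSK4 alone it was -0.10 ± 0.16 and not called, and the interaction was -1.17 ± 0.21 (adjusted p = 0.00707). These 4 calls on E2f2 held without the 3 libraries and in all 11 leave-outs.

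**Figure D4:**
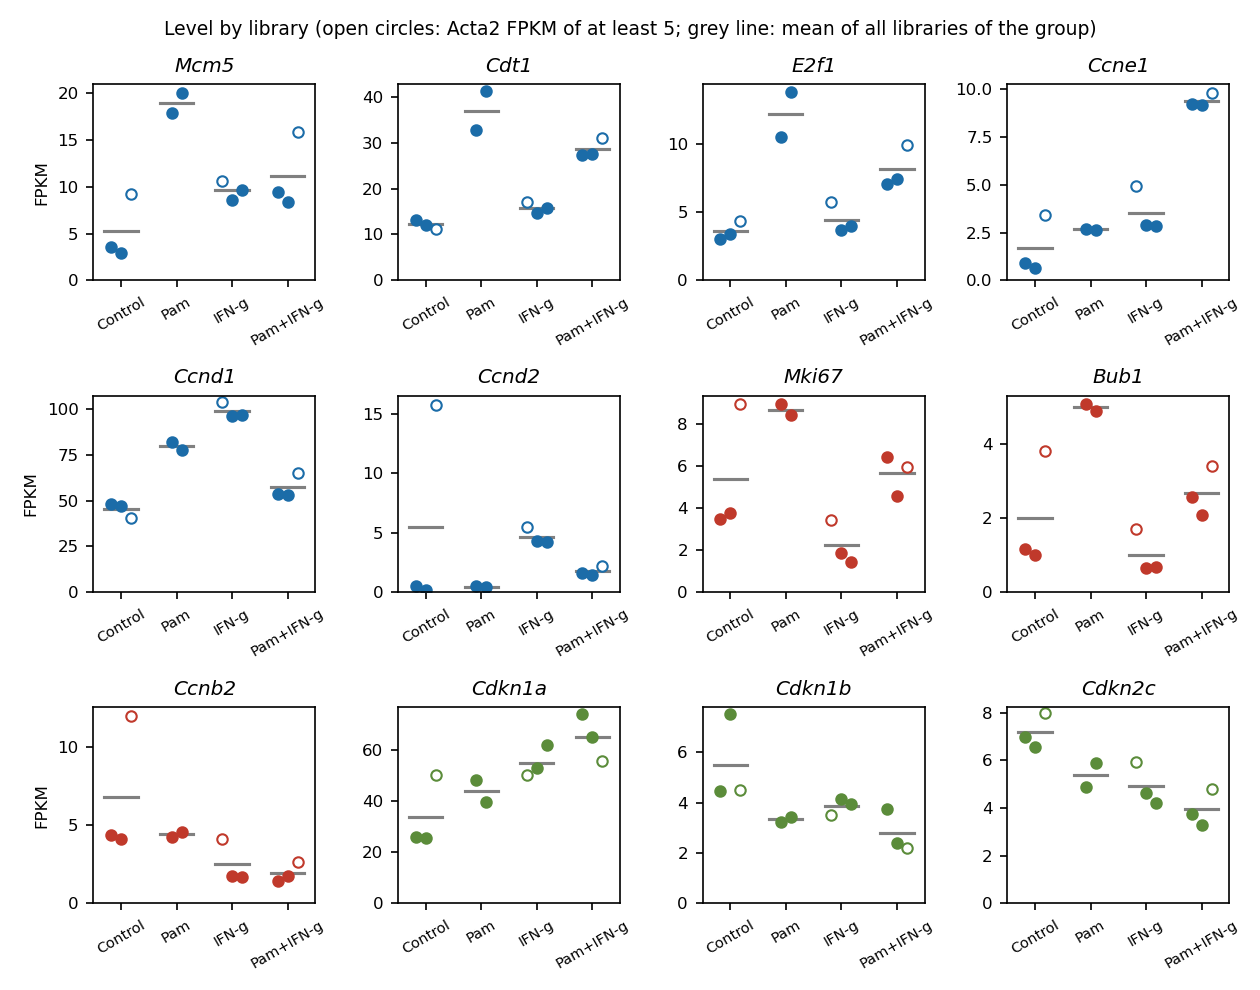
FPKM (vertical axis, from 0) of 12 of the genes in each library by group; Pam stands for Pam3CSK4 and IFN-g for IFN-gamma. Open circles are the 3 libraries with Acta2 of at least 5 FPKM, and grey lines are the means of all libraries of the group. Ccne1 is highest in the combined group (9.17 to 9.79 FPKM), and the open Control circle of Ccnd2 (15.7 FPKM) lies above every other library.

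Among the mitotic genes, Aurkb alone was called with Pam3CSK4 when all libraries were used, and 9 of 13 were without the 3. Aurkb, the kinase of the chromosomal passenger complex, had 1.26, 1.25 and 2.21 FPKM in Control and 2.96 and 2.99 in Pam3CSK4. The rise was 0.92 ± 0.33 (adjusted p = 0.0475 in edgeR) and was lost in 7 of the 11 leave-outs, with adjusted p up to 0.158 without Pam3CSK4 replicate 2. With those 3 left out, it was 1.18 ± 0.18. Bub1, a spindle checkpoint kinase, had 1.18, 0.996 and 3.81 FPKM in Control, 5.08 and 4.91 in Pam3CSK4, 1.70, 0.638 and 0.675 in IFN-gamma, and 2.56, 2.07 and 3.41 in the combined group. Its Pam3CSK4 libraries were above all others. The change with Pam3CSK4 was 1.36 ± 0.54 and not called, and 2.13 ± 0.15 (adjusted p = 1.35e-05 in edgeR) without the 3.

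Mki67, the antigen used to mark dividing cells, had 3.48, 3.77 and 8.95 FPKM in Control, 8.96 and 8.41 in Pam3CSK4, 3.41, 1.86 and 1.41 in IFN-gamma, and 6.42, 4.57 and 5.97 in the combined group. IFN-gamma libraries were below all others, and Control replicate 3 lay in the Pam3CSK4 range. Mki67 fell with IFN-gamma by 1.15 on the log2 scale (SE 0.36; adjusted p = 0.0299 in edgeR) and was 1.34 ± 0.36 higher in the combined group than in IFN-gamma (adjusted p = 0.019). The first call was lost without Control replicate 3, IFN-gamma replicate 2 or IFN-gamma replicate 3 (adjusted p = 0.0868, 0.0925 and 0.103). The second was lost without IFN-gamma replicate 2 or 3 or combined replicate 1 or 3 (adjusted p = 0.0515 to 0.0693). When the 3 were left out, both held, at -1.08 ± 0.17 and 1.72 ± 0.17, and Mki67 also rose with Pam3CSK4, by 1.19 ± 0.16.

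Top2a, the topoisomerase that untangles sister chromatids, had 2.42, 3.56 and 10.3 FPKM in Control, 11.1 and 9.74 in Pam3CSK4, 4.52, 2.28 and 2.46 in IFN-gamma, and 5.62, 5.12 and 8.11 in the combined group. No comparison of Top2a was called with all libraries. Without the 3 it rose by 1.73 ± 0.17 with Pam3CSK4 (adjusted p = 7.55e-05 in edgeR) and by 1.16 ± 0.17 in the combined group against IFN-gamma. Ccnb2, a mitotic cyclin, did not share this. It had 4.40, 4.10 and 12.0 FPKM in Control, 4.26 and 4.59 in Pam3CSK4, 4.10, 1.74 and 1.72 in IFN-gamma, and 1.45, 1.76 and 2.66 in the combined group. Every combined library was below every Control library.

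Ccnb2 fell by 1.67 in the combined group on the log2 scale (SE 0.46; adjusted p = 0.0141 in edgeR) and by 1.31 with IFN-gamma (SE 0.46; adjusted p = 0.0446). The first call was lost without combined replicate 1 or 2 (adjusted p = 0.0558 and 0.0504), and the second in 8 of the 11 leave-outs, with adjusted p up to 0.151 without Control replicate 3. In the other 8 libraries the changes were -1.36 ± 0.19 and -1.23 ± 0.19, and that with Pam3CSK4 was -0.01 ± 0.18. Ccna2, a cyclin of S phase and mitosis, had 2.13, 2.01 and 7.84 FPKM in Control, 4.04 and 4.17 in Pam3CSK4, 2.96, 1.13 and 1.36 in IFN-gamma, and 1.45, 1.40 and 2.73 in the combined group. It was called in no comparison with all libraries. Of the libraries without Acta2, those of Pam3CSK4 were highest, and without the 3 Ccna2 rose with Pam3CSK4 (0.92 ± 0.13) and fell with IFN-gamma (-0.68 ± 0.14) and in the combined group (-0.50 ± 0.14). The mitotic kinase Plk1 was also lower in the combined group than in Control without the 3 (-1.19 ± 0.32). 

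Cdc20, which activates the anaphase-promoting complex, had the widest mitotic ratio in Control replicate 3, with 1.91, 2.36 and 13.5 FPKM in Control. It was called against Control in neither fit. Birc5, the survivin subunit of the passenger complex, was at 1.53 to 4.10 FPKM in Control and 0.475 to 1.85 in IFN-gamma, and without the 3 libraries fell with IFN-gamma (-1.30 ± 0.29). Aurka and Ccnb1 were not called in any comparison with all libraries and rose with Pam3CSK4 without the 3, by 1.65 ± 0.24 and 1.22 ± 0.32. Bub1b changed by 0.88 ± 0.21 there. Cdk1, the kinase that drives mitosis, was not called with Pam3CSK4 or IFN-gamma against Control in either fit (0.17 ± 0.23 and -0.38 ± 0.21 with all libraries).

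Of the 4 inhibitors, 3 were called in at least 1 comparison with all libraries. Cdkn1a (p21), a target of p53, had 26.1, 25.5 and 50.1 FPKM in Control, 48.4 and 39.7 in Pam3CSK4, 50.1, 52.9 and 61.9 in IFN-gamma, and 74.1, 64.9 and 55.7 in the combined group. Control replicate 3 lay in the range of the treated groups, and the other Control libraries below all of them. Cdkn1a rose by 0.83 ± 0.22 with IFN-gamma (adjusted p = 0.0136 in edgeR) and 1.06 ± 0.22 in the combined group (adjusted p = 0.00329), while 0.39 ± 0.24 with Pam3CSK4 was not called. The call with IFN-gamma was lost without IFN-gamma replicate 3 (adjusted p = 0.0583). With the 8 remaining libraries, the changes were 1.22 ± 0.13, 1.47 ± 0.13 and 0.70 ± 0.13, all called.

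Cdkn2c (p18), an INK4 inhibitor, had 6.99, 6.55 and 7.98 FPKM in Control, 4.87 and 5.88 in Pam3CSK4, 5.93, 4.64 and 4.22 in IFN-gamma, and 3.77, 3.31 and 4.78 in the combined group. Every treated library was below every Control library. Cdkn2c fell by 0.76 in the combined group (SE 0.16; adjusted p = 0.00332 in edgeR) and by 0.44 with IFN-gamma (SE 0.16; adjusted p = 0.0495). The latter call was lost in 8 of the 11 leave-outs, with adjusted p up to 0.15 without IFN-gamma replicate 3. With those 3 left out, the changes were -0.89 ± 0.14 and -0.55 ± 0.14, and that with Pam3CSK4, -0.40 ± 0.14, was called too. Cdkn1b (p27), a CIP/KIP inhibitor, had 4.45, 7.50 and 4.50 FPKM in Control, 3.24 and 3.45 in Pam3CSK4, 3.505, 4.16 and 3.95 in IFN-gamma, and 3.75, 2.40 and 2.20 in the combined group. All treated libraries were below all Control libraries. Cdkn1b fell by 0.90 in the combined group (SE 0.26; adjusted p = 0.0183 in edgeR), and without Control replicate 2, its highest library, the value was -0.56. The call was lost without Control replicate 2 or combined replicate 2 or 3 (adjusted p = 0.0594, 0.067 and 0.0677). With the 3 libraries left out, Cdkn1b fell in the combined group (-0.92 ± 0.26) and with Pam3CSK4 (-0.91 ± 0.26). Cdkn2d (p19) was called in no comparison in either fit, with 0.42 ± 0.15 with Pam3CSK4.

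Other genes of the pathway were taken from 4 lists. Of 36 tested origin and polymerase genes, 18 rose with Pam3CSK4 (20.0% of all tested), with a median log2 change of 0.72. With IFN-gamma 8 rose, a share near the 20.0% of all genes tested. With the 3 libraries left out, 29 rose and 1 fell with Pam3CSK4 (26.3% and 27.4% of all tested), and 16 rose and 1 fell with IFN-gamma (22.9% and 24.3%). In the interaction 9 were lower (8.01% of all tested), and in the 8 libraries 23 were lower and 1 higher (13.7% and 14.6%). Fen1, the flap endonuclease of lagging-strand synthesis, was at 2.77 to 2.94 FPKM in Control, 6.35 and 7.56 in Pam3CSK4, 9.30 to 10.4 in IFN-gamma and 6.66 to 7.91 in the combined group. The Fen1 rise was 1.27 ± 0.13 with Pam3CSK4 and 1.86 ± 0.12 with IFN-gamma (adjusted p = 3.72e-06 in edgeR). Rpa2, a subunit of the single-strand binding protein, rose with Pam3CSK4 by 1.41 ± 0.17 and in the combined group against IFN-gamma by 0.75 ± 0.16. Rfc2, of the clamp loader, was lower in the combined group than in IFN-gamma (-0.71 ± 0.11), as the listed levels of 5.87 to 5.94 and 9.37 to 9.86 FPKM show.

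Of 27 tested spindle and cytokinesis genes, 4 rose with Pam3CSK4, below the 20.0% of all genes tested, and 19 without the 3 libraries (26.3% of all tested). With IFN-gamma 2 rose and 3 fell (20.0% and 21.6% of all tested), and without the 3 libraries 3 rose and 11 fell (22.9% and 24.3%). The median with IFN-gamma was -0.66 with all libraries and -0.47 without the 3. Incenp, the scaffold of the passenger complex, was at 13.4 to 16.0 FPKM in Control, 29.9 and 34.8 in Pam3CSK4, 10.2 to 12.3 in IFN-gamma and 28.1 to 34.5 in the combined group. Libraries given Pam3CSK4 lay far above the rest in Incenp, with rises of 1.14 ± 0.11 against Control and 1.47 ± 0.11 in the combined group against IFN-gamma (adjusted p = 9.83e-06 in edgeR). Cks2, a small subunit of cyclin kinases, rose by 1.31 ± 0.27 and 1.45 ± 0.25 in the same comparisons.

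Of 18 tested genes of the RB, E2F and DREAM list, 6 rose and 1 fell with Pam3CSK4 (20.0% and 21.4% of all tested), and 10 rose and 2 fell without the 3 libraries (26.3% and 27.4%). E2f5 and E2f4, repressor E2F members, rose by 1.06 ± 0.12 and 0.51 ± 0.09, and E2f3 fell by 0.56 on the log2 scale (SE 0.11). Rbl1 (p107), a retinoblastoma relative, was at 3.65 to 3.91 FPKM in Control, 12.6 to 14.6 in IFN-gamma and 6.36 to 8.24 in the combined group. It was lower in the combined group than in IFN-gamma (-0.96 ± 0.11; adjusted p = 0.000163 in edgeR). Of 16 tested genes among other inhibitors and p53 targets, 4 rose and 3 fell with Pam3CSK4 in either fit, and 3 rose and 5 fell with IFN-gamma. The Pam3CSK4 shares lie near those of all genes tested with all libraries (20.0% and 21.4%), beside 26.3% and 27.4% without the 3. With IFN-gamma 20.0% of all genes tested rose and 21.6% fell with all libraries. Without the 3 libraries 4 of the 16 rose and 5 fell with IFN-gamma (22.9% and 24.3% of all tested). Cdkn2b (p15) rose with Pam3CSK4 by 1.34 ± 0.18, and Ccng2 and Btg2, linked to cell cycle arrest, were lower (-1.19 ± 0.14 and -0.71 ± 0.07).

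Cdkn2a, the locus of p16 and p19ARF, was at 6.95, 8.45 and 4.65 FPKM in Control, 11.5 and 11.3 in Pam3CSK4, 33.7, 42.7 and 39.2 in IFN-gamma, and 15.2, 14.7 and 15.7 in the combined group. The 4 groups did not overlap, and IFN-gamma was the highest. The rise with IFN-gamma was 2.61 ± 0.23 (adjusted p = 2.81e-05 in edgeR), and the combined group was lower than IFN-gamma (-1.36 ± 0.22; adjusted p = 0.00125). When the 3 were left out, these were 2.47 and -1.47. The 2 products of the locus share exons and are not separated in a gene-level count. Trp53 was lower in the combined group than in IFN-gamma, at -0.59 ± 0.10.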

How the data were processed

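Deposited data were 1 table with a read count and an FPKM value per gene and library, per the file headers. The submitters' processing notes name TopHat2 2.1.0, Cufflinks 2.1.1, Cuffdiff and mm10 without their roles. Not given in the sources used here are the counting tool, annotation and strand setting, so genes that overlap others or have copies are uncertain. Across 6617 genes with at least 200 counts in each library, FPKM and count matched to a relative deviation of 2.82e-06.

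The members and lists were chosen with earlier results of these data known, and support nothing by their choice. Every member is described, and of the other lists at most the 3 genes with the smallest adjusted p past 0.05 in each of 2 comparisons (Pam3CSK4 against Control, combined against IFN-gamma); further values of those genes, and Cdkn2a with IFN-gamma, were added after they were seen. Counts of genes that reached FPKM 1 in 2 or more libraries (97.97% or more of a library's counts) were fitted in R 4.3.3 with edgeR 4.0.16, using TMM scaling, 4 group means, all 11 libraries and the quasi-likelihood test. Tests were two-sided, adjusted by Benjamini-Hochberg over 10938 genes, with a threshold of 0.05. The SE is the absolute log2 change divided by the root of the F statistic. Leaving out the 3 libraries with Acta2 of at least 5 FPKM was the chief alternative; others used DESeq2 1.42.0, limma 3.58.1, other scalings and filters, the replicate number as a block, and each library left out in turn. The procedure was tested on simulated data. Promoters and motif matches came from RefSeq (GRCm38.p6).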

Additional observations from a re-analysis of the deposited data

Results flagged for a closer look

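In 6 genes the change with Pam3CSK4 differed between cells given IFN-gamma and cells not given it, by the interaction test of edgeR with adjustment over all genes tested. The log2 difference (change in IFN-gamma-treated minus change in untreated cells) was -0.76 for Mcm3, -1.42 for Mcm6, -0.73 for Cdt1, -0.86 for Pcna, -1.60 for Ccnd1 and -1.17 for E2f2. In Mcm3, Mcm6 and Cdt1, Pam3CSK4 raised the level in untreated cells by 1.05, 1.39 and 1.58, and in IFN-gamma-treated cells, of these 3, only Cdt1 was called (0.85). In Ccnd1 the change was 0.79 without IFN-gamma and -0.80 with it, both called, so the direction turned. In E2f2 it was -0.10 and not called without IFN-gamma, and -1.27 with it. All 6 differences were called without the 3 libraries with Acta2, at -0.79, -1.76, -0.64, -0.81, -1.55 and -1.16 in the same order of genes. Over the 11 leave-outs of 1 library, the call was lost in 4 for Mcm3, 7 for Mcm6, 6 for Cdt1 and 1 for Pcna. Only Ccnd1 and E2f2 kept it in all. Mcm3 and Cdt1 also lost it with the replicate block (adjusted p = 0.051 and 0.0735 in edgeR), and Cdt1 with no filter on low values (adjusted p = 0.056 in edgeR). In the combined group Pam3CSK4 was given for 24 h before IFN-gamma, and the harvest time of the Control and Pam3CSK4 cells is not given. Time since the agonist may therefore differ between the changes compared here. No explanation was tested.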

How the results depend on the processing

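Most counts of called genes moved when the 3 libraries with Acta2 were left out. Without them edgeR called 30 higher and 2 lower (Pam3CSK4 against Control), 17 and 9 (IFN-gamma against Control), 21 higher (combined against Control), 11 and 5 (combined against IFN-gamma), 3 and 27 (combined against Pam3CSK4) and 22 lower (interaction). In DESeq2, an alternative added after seeing the data, the same counts without the 3 were 30 and 1, 15 and 8, 19, 9 and 5, 3 and 27, and 21. Fits to the groups compared alone gave 6 higher with Pam3CSK4, 0 lower with IFN-gamma (4 with all groups), 4 lower in combined against IFN-gamma, and 3 higher and 14 lower against Pam3CSK4. Fewer libraries entered these fits. For the combined group against Pam3CSK4, where edgeR called 0 and 0, DESeq2 called 1 higher and 4 lower, limma on log2(FPKM + 1) 1 and 5, limma on log2(FPKM + 0.1) 5 lower, upper-quartile scaling 2 lower, and a filter that asks 3 libraries to reach FPKM 1 called 1 lower. DESeq2 called 1 gene lower with Pam3CSK4 and 10 lower in the interaction, and no filter on low values gave 1 lower with IFN-gamma. The cause was not tested.

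Leaving out each library in turn gave 7 to 27 higher and 0 to 1 lower with Pam3CSK4, 4 to 16 and 0 to 6 with IFN-gamma, and 6 to 20 and 2 to 7 in the combined group. It gave 2 to 7 and 2 to 4 against IFN-gamma, 0 to 3 and 0 to 7 against Pam3CSK4, and 2 to 18 lower in the interaction.

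No label ties equal replicate numbers, and the main fit took the samples as unpaired. Deviations of same-numbered libraries from their group means correlated at -0.6 to 0.54. With so few libraries per group, and those with Acta2 under different numbers, this cannot decide whether the numbers pair the samples. The replicate block gave 1 gene lower with IFN-gamma (4 without it) and 1 lower in combined against Pam3CSK4 (0 without it), and 1.52 for Ccnd2 with IFN-gamma. It moved no other count of calls by over 1.5 times.

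Of 50 calls on these genes with all 11 libraries (6 comparisons together), 2 were lost without the 3 libraries and 16 in fits to the groups compared alone. The interaction, with 6 of the 50 calls, was not fitted to the groups compared alone, so those 16 are all from the other comparisons. Upper-quartile scaling lost 6, the replicate block 6 and no filter 5. No gene called with all 11 libraries changed direction in any alternative run. Of the uncalled values given, Ccnd2 with IFN-gamma (-0.03) became 0.064 with no filter, 0.86 and 1.76 in limma (pseudocounts 1 and 0.1), 3.67 without the 3 libraries and 3.69 there in DESeq2, and ran from -0.59 to 3.78 over the leave-outs. Ccnd2 became 0.40 (limma, 0.1), 2.20 and 2.21 in the combined group (-1.999 to 2.37 over the leave-outs), and 0.29 and 0.31 with Pam3CSK4 (-4.08 to 0.29 over the leave-outs). Ccnb2 with Pam3CSK4 became 0.013, and the Ccne1 interaction -0.024, in DESeq2 without the 3. Over the leave-outs, the change with Pam3CSK4 ran from -0.25 to 1.31 in Rrm2, -0.22 to 0.026 in E2f2, -0.46 to 1.21 in Ccnb1, -0.019 to 0.38 in Cdk1 and -0.029 to 1.65 in Aurka. That of Cdk6 with IFN-gamma ran from -0.38 to 2.19, and the Ccne1 interaction from -0.26 to 1.05.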

Other observations

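Csf1r, the receptor for the M-CSF in the medium, was at 550, 513 and 377 FPKM in Control, 157 and 160 in Pam3CSK4, 438, 475 and 494 in IFN-gamma, and 191, 180 and 200.2 in the combined group. Libraries given Pam3CSK4 were below all libraries not given it. Csf1r fell by 1.63 with Pam3CSK4 on the log2 scale (SE 0.20; adjusted p = 0.000209 in edgeR) and by 1.26 in the combined group against Control (SE 0.17). The change with IFN-gamma alone was 0.05 ± 0.17 and not called. Of the other microglial markers, P2ry12, Tmem119 and Itgam also fell with Pam3CSK4, Aif1 and Ptprc rose by 1.46 ± 0.22 and 0.83 ± 0.25, and Cx3cr1 and C1qa, at 0.10 ± 0.19 and 0.05 ± 0.19, were not called. Csf1r was singled out after its values were seen, because M-CSF was in the medium.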
